A study of Homo sapiens with 4 samples.

Results

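The genes described here are those whose symbols begin with ARHGEF or ARHGAP, taken from probe sets to which the array's annotation gives exactly 1 symbol, with antisense and pseudogene symbols left out. They number 54 of 19775 genes, 23 RhoGEF and 31 RhoGAP genes, read by 155 probe sets. Where a gene has several probe sets, the one with the highest mean log2 intensity on the 4 arrays stands for it. Of the 54, 41 (75.9%) lay above a filter on dim genes, set at an intensity of 70.5, against 60% of all genes, and only these were tested: 15 RhoGEF and 26 RhoGAP genes.

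RNA came from HEK293, an established human embryonic kidney cell line, on 4 expression arrays. All cells were grown with serum and then held overnight without it. The 2 LPA arrays are of cells given lysophosphatidic acid (LPA), a lipid of serum whose receptors couple to G proteins. The concentration was 1 µM and the exposure 2 h. The 2 untreated arrays have a treatment label of none and titles with the letters Vc, which are not explained. Each group holds replicate numbers 1 and 2, and nothing in the labels says whether these are separate cultures. The p-values below therefore measure no more than how these arrays vary, and that may be technical variation. The limma method used below also draws each gene's variance towards that of other genes. Its p-values and standard errors (SE, given as ±) thus do not rest on the gene's own 4 arrays alone.

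The small GTPases RhoA, Rac1 and Cdc42 switch between an active GTP-bound and an inactive GDP-bound state and control actin, adhesion and contractility. Guanine nucleotide exchange factors (RhoGEFs) load them with GTP and so switch them on, and GTPase-activating proteins (RhoGAPs) speed GTP hydrolysis and so switch them off. LPA receptors coupled to the G proteins G12 and G13 activate RhoA through a small group of RhoGEFs that carry an RGS-homology domain, encoded by ARHGEF1, ARHGEF11 and ARHGEF12. Receptors coupled to Gq reach RhoA through p63RhoGEF, encoded by ARHGEF25. This control acts on the proteins, while the arrays measure RNA.

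The arrays had similar median intensities, 70.3 to 76.1. LPA replicate 2 stood apart in its maximum, 62508 against 93776 to 104012 on the others, and in the ratio of 3′ to 5′ signal for ACTB. That ratio was 13.4 and 12.6 on the untreated arrays and 13.6 and 18.8 on the LPA arrays. It was thus higher on both LPA arrays, barely so in replicate 1, and the 3′ signal of ACTB was much the stronger on every array. For GAPDH the ratio was 1.25 and 1.22 on the untreated arrays and 1.35 and 1.38 on the LPA arrays, also higher on both. All 9 markers chosen for HEK293 cells, such as the neurofilament NEFM and vimentin (VIM), lay above the filter. Of 12 markers of other cell types 2 did, COL1A1 and PECAM1, and none of the 12 was listed at 0. The summed intensity of those 12 was 1485 and 1642 on the untreated arrays and 1160 and 1333 on the LPA arrays, and its part in the results below was not tested.

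No RhoGEF or RhoGAP gene passed the test of LPA against no treatment. With limma and Benjamini-Hochberg adjustment over 11865 genes, 0 of 41 members had an adjusted p under 0.05, where 0 (0%) of all genes did. At an unadjusted limma p under 0.05 there was 1 member, ARHGEF12, against 207 of all genes (1.74%), of which 140 were higher after LPA (1.18%). The groups did not overlap for 12 members, with LPA higher for 6 of 41 (14.6%) and lower for 6 (14.6%). Over all genes these shares were 14.4% and 12.5%, so the members' counts lay near the background. A difference between groups in such bulk RNA does not separate fewer expressing cells from less RNA per cell.

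**Figure D1:**
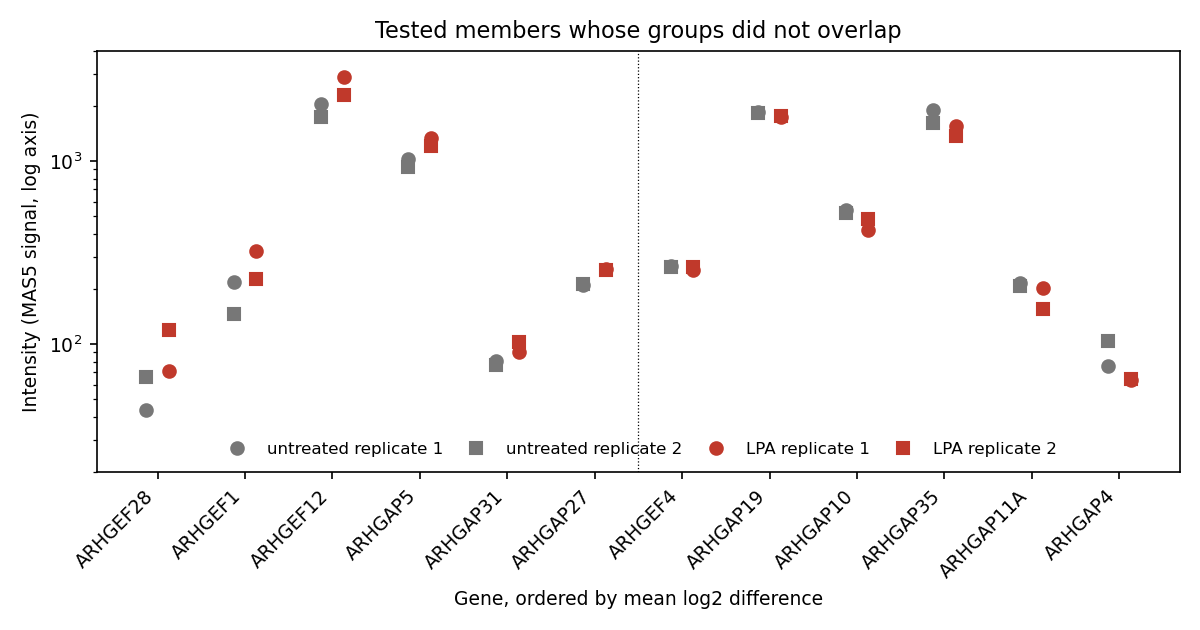
Intensity on each array (vertical log axis) of the 12 tested genes whose LPA and untreated values did not overlap, ordered by mean log2 difference; circles are replicate 1, squares replicate 2, and the dotted line parts the 6 genes higher after LPA from the 6 lower. ARHGEF4, at 266 and 264 untreated and 254 and 264 after LPA, is the narrowest case, while ARHGEF12 is at 2038 and 1743 untreated and 2871 and 2285 after LPA.

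RhoGEF and RhoGAP genes were then set against each other as groups. The median log2 difference, LPA minus untreated, was -0.034 over 15 RhoGEF genes and -0.065 over 26 RhoGAP genes, beside 0.0092 over all genes tested. The RhoGEF median thus exceeded the RhoGAP median by 0.031. Taken within replicate number 1 the medians were 0.012 for RhoGEFs and -0.024 for RhoGAPs, and within number 2 they were 0.10 and -0.062. The gap between the families was 0.036 in number 1 and 0.16 in number 2. The same gap computed between the 2 untreated arrays was -0.069, and between the 2 LPA arrays 0.059. The gap in number 1 was therefore smaller in size than the one between untreated arrays, and the gap in number 2 larger. Leaving out untreated replicate 1 moved the gap of 0.031 to 0.26, and leaving out untreated replicate 2 moved it to 0.12. The gap was 0.16 when LPA replicate 1 was dropped and 0.18 when LPA replicate 2 was. No p is given for the gap, since the genes of a family are not replicates.

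By direction, 6 of 15 RhoGEF genes (40%) had a positive difference in both replicate numbers and 2 (13.3%) a negative one. Among RhoGAP genes 4 of 26 (15.4%) were positive in both and 7 (26.9%) negative in both. All genes tested gave 28.3% and 25.2%. The remaining 7 RhoGEF and 15 RhoGAP genes went opposite ways in the 2 numbers. Non-overlapping groups were higher after LPA for 3 RhoGEF genes (20%) and lower for 1 (6.67%), and for RhoGAP genes higher for 3 (11.5%) and lower for 5 (19.2%). Whether the families differ in these shares was not tested.

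**Figure D2:**
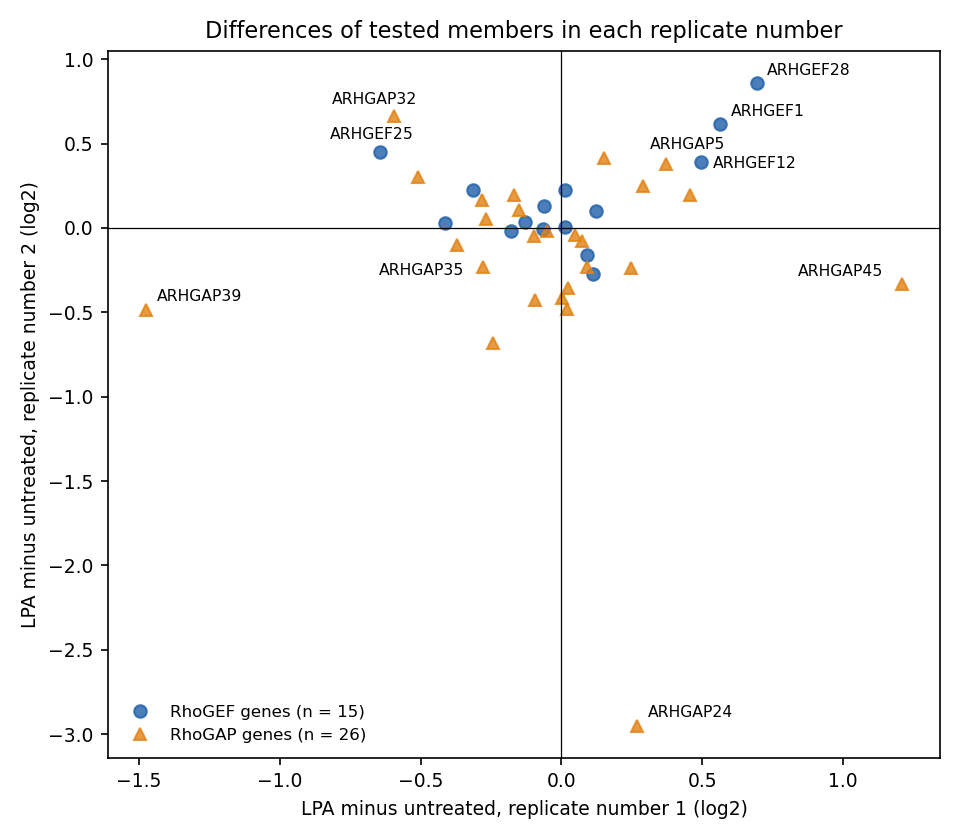
Log2 difference, LPA minus untreated, of each tested gene in replicate number 1 (horizontal) and number 2 (vertical), with RhoGEF genes as circles and RhoGAP genes as triangles. ARHGEF28, ARHGEF1 and ARHGEF12 lie at the upper right. The RhoGAP gene ARHGAP5 (0.37 and 0.38) lies there too, closer to ARHGEF12 (0.49 and 0.39) than ARHGEF28 (0.69 and 0.86) does. Most other genes lie around 0, and ARHGAP24 is far down in number 2 alone (-2.95).

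Of the RGS-homology RhoGEFs, which couple G12 and G13 to RhoA, ARHGEF12 (LARG) read 2038 and 1743 in untreated replicates 1 and 2 and 2871 and 2285 in LPA replicates 1 and 2. The LPA arrays were both the higher, with a log2 difference of 0.49 in number 1 and 0.39 in number 2. The mean was 0.44 ± 0.18 (limma's SE, 2 arrays per group), a 1.36-fold ratio, with limma unadjusted p = 0.041 and adjusted p = 0.9999. Over the alternatives the mean ran from -0.48 to 0.61 and the adjusted p from 0.0879 to 1. The negative end came from averaging the gene's probe sets, whose differences had opposite signs.

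A second probe set of ARHGEF12, 201333_s_at, read 233 and 297 in untreated cells and 99.9 and 147 with LPA (log2 difference -1.11 ± 0.36). Another, 201335_s_at, read 175 and 140 against 89.5 and 95.1 (-0.76 ± 0.38). On both of these the LPA values lay below both untreated values, opposite to the brightest, 201334_s_at. When each of 21817 probe sets was fitted separately, a choice made after these values were seen, limma gave 201333_s_at an unadjusted p = 0.013, with an adjusted p that did not pass. For 201334_s_at in that fit the limma unadjusted p was 0.0427, and it did not pass either. These were the 2 member probe sets, of 71 above the filter, with an unadjusted p under 0.05, against 2.05% of all probe sets. Which part of the transcript each probe set reads is not given in the sources used here.

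ARHGEF1 (p115-RhoGEF), the other tested member of this group, showed the same split. Its brightest probe set, 1560445_x_at, read 218 and 147 untreated against 323 and 225 after LPA. The groups did not overlap, but the lower LPA value was close to the higher untreated one, and the mean log2 difference was 0.59 ± 0.36 (limma unadjusted p = 0.138), which became -0.051 when the probe sets were averaged. Leaving out 1 array gave 0.30 (without untreated replicate 2) to 0.87 (without untreated replicate 1). Its other probe set above the filter, 203055_s_at, read 155 and 203 against 109 and 110, a difference of -0.69 ± 0.37, again with no overlap. On the untreated arrays alone the 2 were nearly equal, with a mean log2 ratio of 0.013 for 1560445_x_at over 203055_s_at. The LPA arrays, with a mean log2 ratio of 1.29, made 1560445_x_at clearly the brighter. The suffix x marks a probe set with probes that also match other sequences, and whether its signal is that of ARHGEF1 alone was not tested.

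The ratio of the 2 brightest probe sets of a gene is taken within an array, so a constant factor applied to a whole array all but cancels. For ARHGEF12 the log2 ratio was 3.13 and 2.55 on the untreated arrays and 4.83 and 3.95 on the LPA arrays. It was higher on both LPA arrays, by 1.55 ± 0.39 (SE). For ARHGEF1 the log2 ratio was 0.49 and -0.47 untreated and 1.56 and 1.03 after LPA, a difference of 1.28 ± 0.41. Over 5789 genes with at least 2 probe sets above the filter, limma gave unadjusted p = 0.0127 for ARHGEF12 and 0.0283 for ARHGEF1, with adjusted p = 0.981 for both. Of all these genes 267 (4.61%) had an unadjusted p under 0.05 and 0 (0%) passed after adjustment. This comparison was chosen after the opposing probe sets were seen. A changed ratio shows that the probe sets changed unequally, not which of them follows the gene. The 3′ to 5′ ratios of ACTB and GAPDH were also higher on both LPA arrays, and their part in the ratios of probe sets was not tested.

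ARHGEF11 (PDZ-RhoGEF), the remaining one of these exchange factors, lay below the filter and was not tested. It read 58.9 and 60.8 untreated and 99.1 and 13.2 after LPA, so the 2 LPA arrays lay on either side of the untreated ones. ARHGEF25, whose product is driven by Gq, read 129 and 117 against 82.4 and 161. Its groups overlapped and its replicate numbers were of opposite sign (-0.64 and 0.45), with a mean of -0.096 ± 0.45.

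**Figure D3:**
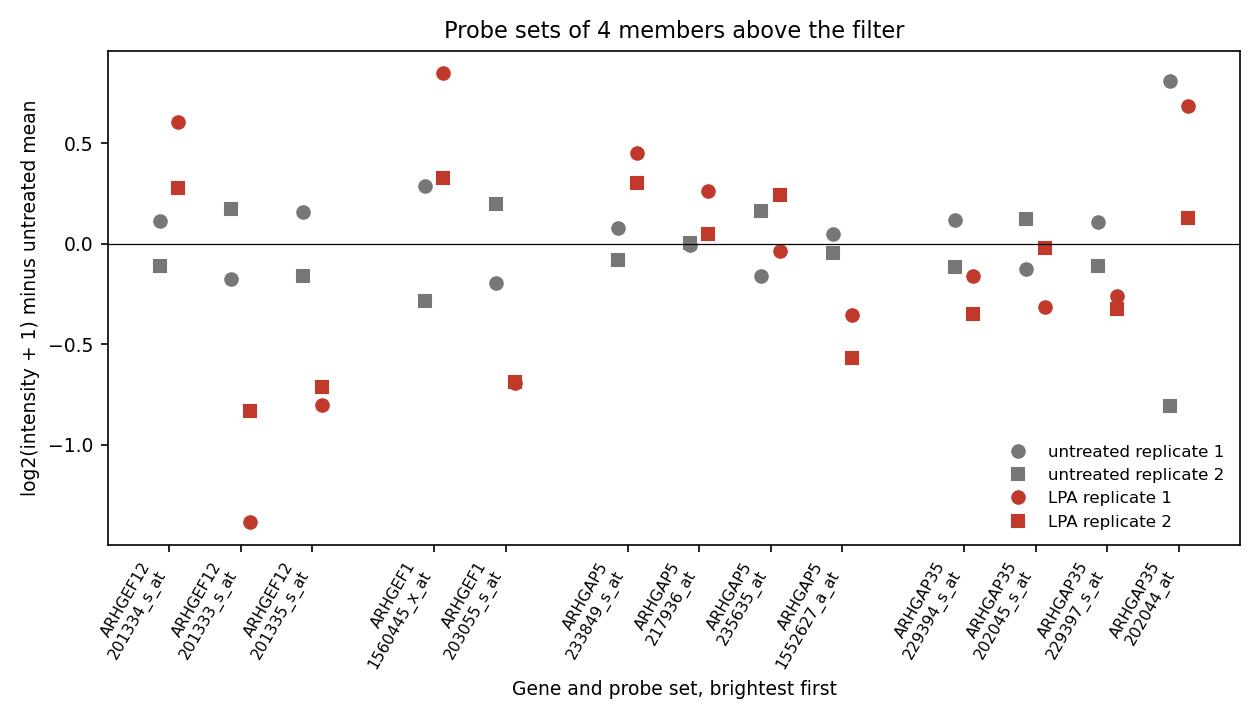
Each probe set above the filter of ARHGEF12, ARHGEF1, ARHGAP5 and ARHGAP35, with log2(intensity + 1) minus the mean of the 2 untreated arrays on the vertical axis; grey is untreated, red is LPA, circles are replicate 1 and squares replicate 2. The brightest probe set stands first for each gene. ARHGEF12 shows 1 probe set higher and 2 lower after LPA, and ARHGEF1 1 of each.

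Of other exchange factors for RhoA, ARHGEF28, whose product binds focal adhesion kinase, read 43.8 and 65.7 untreated and 71.4 and 120.0 after LPA. Its groups did not overlap and its mean log2 difference, 0.78 ± 0.51 (limma unadjusted p = 0.163), was the highest of the 41 members. It was also the member nearest to the filter, with a mean intensity of 70.52 against a limit of 70.50, and the nearest below was ARHGEF15 at 58.5. Both its untreated values lay below that limit so that they may be background, and it was tested only because its LPA values lay above. Its place among the genes higher without overlap therefore depends on those LPA values too. With a pseudocount of 64 its difference was 0.42. Without LPA replicate 2 the difference of ARHGEF28 was 0.41, and without LPA replicate 1 it was 1.15. ARHGEF18, whose product activates RhoA at cell junctions, read 1253 and 874 against 1008 and 1022, with replicate numbers of opposite sign and a mean of -0.044 ± 0.22. ARHGEF3, another exchange factor for RhoA, differed by -0.036.

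Among exchange factors for Rac and Cdc42, ARHGEF7 (beta-PIX), which joins these GTPases to PAK kinases, read 1118 and 842 against 1128 and 983 (0.12 ± 0.22 on the log2 scale). A dimmer probe set of ARHGEF7, 1562271_x_at, read 72.5 and 65.0 against 138 and 105 (0.80 ± 0.43), with no overlap. Its untreated readings lay around the filter's limit, so 1562271_x_at passed the filter only through its LPA values. It too carries the suffix x, and whether its signal is that of ARHGEF7 alone was not tested. The mean of the probe sets of ARHGEF7 above the filter, with 1562271_x_at included, gave 0.28. ARHGEF6 (alpha-PIX), a relative of ARHGEF7, read 713 and 800 against 719 and 804, and so differed by 0.0097. ARHGEF4 (Asef), which binds the tumour suppressor APC, read 266 and 264 against 254 and 264. It counts as the 1 RhoGEF gene lower without overlap, although its difference was only -0.034 ± 0.29. ARHGEF26, an exchange factor for RhoG, differed by -0.099, and its 2 untreated arrays, at 1711 and 1059, differed by far more than the groups.

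Among RhoGAPs, the p190 proteins inactivate RhoA downstream of adhesion and growth factor receptors, and their 2 genes had differences of opposite sign. ARHGAP5 (p190B) read 1029 and 923 untreated and 1332 and 1200.2 after LPA, with no overlap. Its log2 difference was 0.37 in number 1 and 0.38 in number 2, with a mean of 0.38 ± 0.19 and a 1.30-fold ratio (limma unadjusted p = 0.08). ARHGAP35 (p190A) read 1895 and 1608 against 1562 and 1371, also with no overlap. Its difference was -0.28 in number 1 and -0.23 in number 2, with a mean of -0.25 ± 0.18 (limma unadjusted p = 0.197). Both had adjusted p = 0.9999, and whether the 2 genes differ from each other was not tested.

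The other probe sets of ARHGAP5 were uneven. 217936_at read 1014 and 1020.2 against 1218 and 1054, also without overlap (0.16). On the untreated arrays alone 217936_at was the brighter, with a mean log2 ratio of -0.062 for the probe set reported above over it. The LPA arrays thus helped to choose the probe set that stands for ARHGAP5. 235635_at overlapped (0.10). 1552627_a_at read 268 and 251 against 202 and 174, with both LPA values lower (-0.46 ± 0.30). For ARHGAP35 the next brightest, 202045_s_at, overlapped at -0.17, and 229397_s_at read 127 and 109 against 97.8 and 93.5 (-0.29), lower without overlap. The dimmest above the filter, 202044_at, differed by 0.41 with wide overlap. With the mean of the probe sets above the filter the differences were 0.043 for ARHGAP5 and -0.077 for ARHGAP35, and with all probe sets 0.13 and -0.27.

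Among probe sets above the filter, only those of ARHGEF12, ARHGEF1 and ARHGAP5 lay wholly above and wholly below the untreated values within 1 gene. These genes are 3 of the 18 members with at least 2 probe sets above the filter (16.7%), against 436 of 5789 such genes (7.53%). The 2 brightest probe sets differed in sign for 11 of the 18 members (61.1%), 8 of 9 RhoGEF genes and 3 of 9 RhoGAP genes, against 44% of all such genes. For the members with a small difference a change of sign carries little, and no test of these shares was made.

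The naming rule took 6 RhoGAP genes whatever their values. Beside ARHGAP5 and ARHGAP35, whose groups did not overlap, the other 4 had overlapping groups on the brightest probe set, with differences under 0.1 in size there. ARHGAP1 (p50RhoGAP), a broadly expressed GAP for Cdc42, read 1582 and 1172 against 1302 and 1314 (-0.058 ± 0.20). Its other probe set above the filter, 216689_x_at, read 182 and 188 against 154 and 122, lower without overlap (-0.43 ± 0.35), and the mean of both gave ARHGAP1 a difference of -0.24. ARHGAP18, a GAP for RhoA, read 868 and 996 against 924 and 847 (-0.072 ± 0.20). ARHGAP21, which acts on Cdc42 at the Golgi, read 1609 and 1307 against 1431 and 1498. Its difference was 0.014 ± 0.18 and turned to -0.0062 under quantile normalization. A dimmer probe set of ARHGAP21, 241701_at, read 81.7 and 118 against 62.3 and 70.9, also lower without overlap (-0.55 ± 0.46). Its LPA readings lay around the filter's limit, so 241701_at passed the filter only through its untreated values. The mean of the probe sets of ARHGAP21 was -0.27, both with all of them and with those above the filter. ARHGAP29, a GAP for RhoA that acts with the small GTPase Rap1, read 769 and 884 against 742 and 873 (-0.035 ± 0.21), or -0.49 with its probe sets below the filter averaged in.

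Further RhoGAP genes were higher or lower without overlap at modest sizes. ARHGAP27 read 210.3 and 214 untreated and 257 and 255 after LPA (0.27 ± 0.30), with the arrays of each group nearly equal. ARHGAP31 (CdGAP), a GAP for Cdc42 and Rac1, read 81.2 and 76.7 against 90.4 and 103 (0.28 ± 0.43). Lower after LPA were ARHGAP10 (GRAF2), with 541 and 521 against 418 and 485 (-0.24 ± 0.24), and ARHGAP4, with 75.4 and 104 against 63.7 and 64.4 (-0.46 ± 0.46). Leaving out 1 array gave ARHGAP4 between -0.69, without untreated replicate 1, and -0.23, without untreated replicate 2. The LPA values of ARHGAP4 lay below the filter's limit, so it was tested only through its untreated values.

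ARHGAP11A and ARHGAP19, whose products act on RhoA in dividing cells, were also lower without overlap. ARHGAP11A read 215 and 209 against 201 and 155 (-0.26 ± 0.33), a difference that was -0.073 without LPA replicate 2. ARHGAP19 read 1851 and 1817 against 1732 and 1756, a difference of only -0.073 ± 0.16, and its next brightest probe set overlapped (-0.016).

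The most negative mean differences belonged to ARHGAP24 and ARHGAP39, which overlapped between groups and are named here because of their values. ARHGAP24 (FilGAP), a GAP for Rac that binds filamin, read 110 and 211 untreated and 133 and 26.5 after LPA. Its difference of -1.34 ± 0.73 rests on LPA replicate 2 and was -0.20 without it. Whether the low maximum of that array played a part was not tested. The other probe sets of ARHGAP24 lay below the filter and disagreed. 230802_at read 94.5 and 54.1 against 2.19 and 19.4, and 230803_s_at was also lower without overlap, while 221030_s_at was higher without overlap (0.57). ARHGAP39 read 136 and 204 against 48.2 and 145, a difference of -0.98 ± 0.56 that was -0.19 without LPA replicate 1. At the other end, ARHGAP45 read 49.8 and 129 against 116 and 102 (0.44 ± 0.53), and turned to -0.24 without untreated replicate 1.

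**Figure D4:**
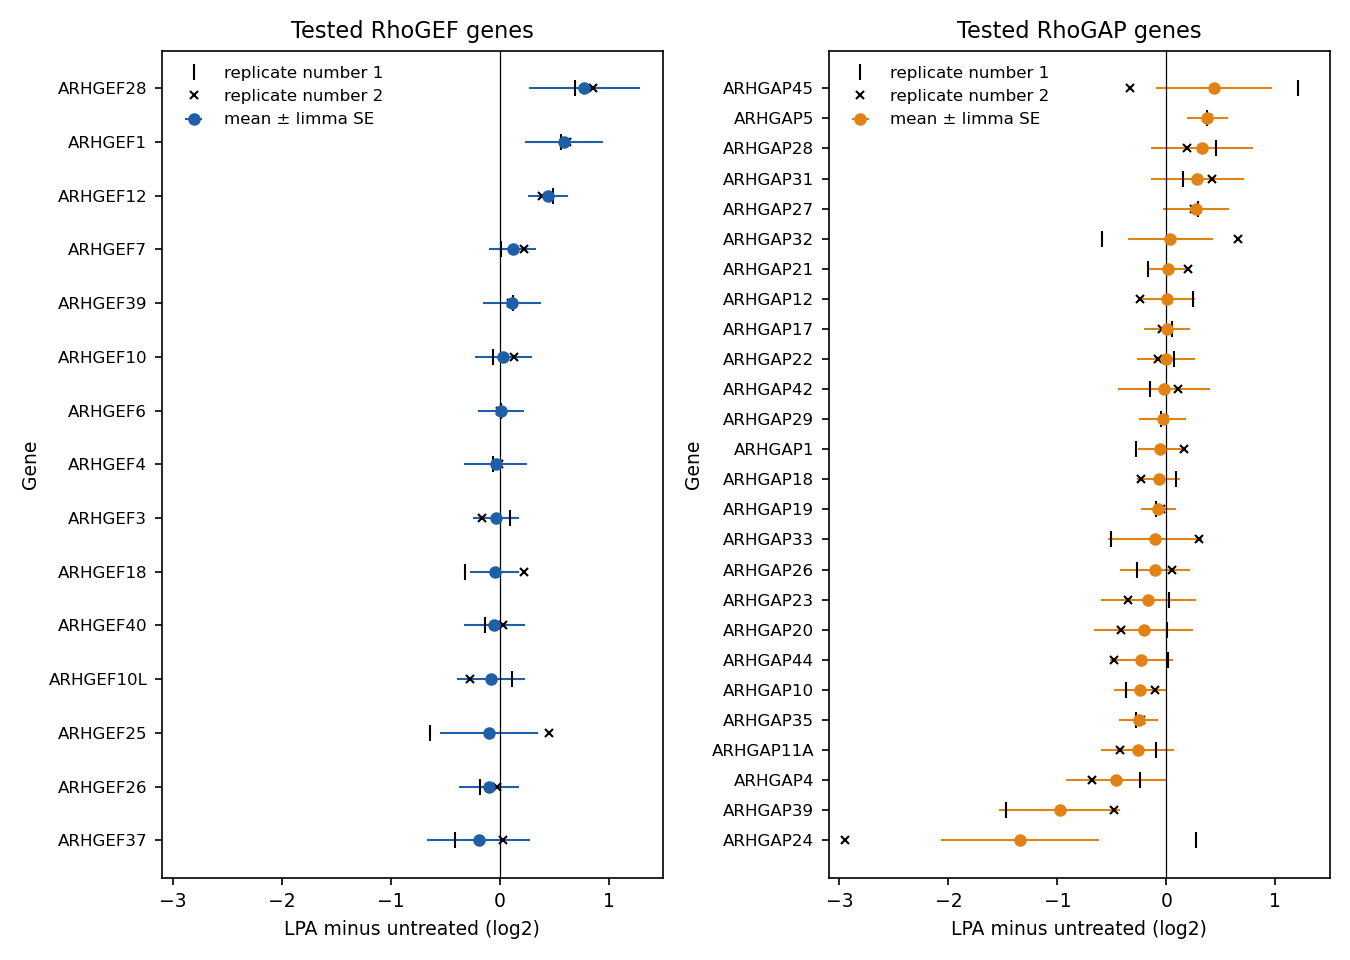
Log2 difference, LPA minus untreated, of all 15 RhoGEF (left) and 26 RhoGAP genes tested (right); dots are means with limma's SE as bars, vertical ticks are replicate number 1 and crosses number 2. Of the 41 means, 25 lie within 0.2 of 0, and 4 exceed 0.5 in size, those of ARHGEF28, ARHGEF1, ARHGAP39 and ARHGAP24.

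The spread between arrays of a group was large beside most of these differences. The median size of a difference between groups was 0.11 on the log2 scale, while the 2 untreated arrays differed by a median of 0.23 in the same genes. The group difference exceeded the difference between arrays in both groups for 10 of 41 members (24.4%), 3 RhoGEF and 7 RhoGAP genes, beside 16.6% of all genes. The 13 members below the filter, 8 RhoGEF and 5 RhoGAP genes, read between 1.93 and 116 on single arrays and have no measured difference here.

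Promoter sequence was looked at for motifs of factors known to act downstream of RhoA, SRF and TEAD, and of 2 factors of the early response, AP-1 and CREB. RefSeq promoters (build GRCh38.p14) matched 42 of the 54 genes, with 86 starts, and the 250 bases before each start were searched on both strands. The SRF CArG box was found before 0 of the 86 member starts and 1.16% of all 35116 starts, AP-1 (TGANTCA) before 0 and 6.57%, and the CREB element (TGACGTCA) before 0 and 1.65%. The TEAD motif (GGAATG or its reverse complement) was found before 5 member starts (5.81%) and 11.9% of all. Counted by gene, it was found for 5 of 42 members and 3902 of 27305 genes, shares that lie closer together than those of starts. The windows below show the motif, in capitals, in ARHGEF28, the gene with the highest mean difference, and in ARHGAP24, the one with the lowest. Both were picked for those values, which move by over 1.5 times when LPA replicate 2 is left out. The other 3 genes with the motif, whose groups overlapped, were ARHGAP21 (0.014), ARHGAP22 (-0.0017) and ARHGAP45 (0.44). The ARHGEF28 window is chr5:73813450-73813515 and that of ARHGAP24 chr4:85827775-85827840, both on the plus strand, and a match is not evidence of binding.
ARHGEF28: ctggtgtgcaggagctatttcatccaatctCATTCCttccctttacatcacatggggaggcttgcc
ARHGAP24: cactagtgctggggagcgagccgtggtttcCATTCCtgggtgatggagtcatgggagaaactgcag

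In each other list of pathway genes described here 0 genes passed the adjusted limma threshold. Exchange factors of the same family under other symbols had 4 genes higher and 3 lower without overlap of 28 tested, beside 14.4% and 12.5% of all genes (median 0.031, beside 0.0092 for all genes). VAV1, an exchange factor for Rac named here because of its value, read 73.4 and 117 against 155 and 156 (0.74 ± 0.41). ECT2, the exchange factor of cytokinesis, read 3362 and 3966 against 4217 and 5062 (0.34 ± 0.17), but its other probe set gave -0.35. RhoGAPs under other symbols had 2 higher and 4 lower of 23 tested (median 0.0029), to be read against the same 14.4% and 12.5%. SRGAP2 read 44.4 and 58.4 against 85.8 and 156, a difference of 1.17 ± 0.50 with limma unadjusted p = 0.045, and both untreated values lay below the filter's limit. It was thus tested only through its LPA values.

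Of 10 tested LPA receptors and G proteins 0 were higher and 1, GNA11, lower without overlap (-0.21 ± 0.18), beside those shares of all genes. GNA12 and GNA13, which encode the G proteins that bind the RGS-homology RhoGEFs, both overlapped between groups. GNA12 read 2015 and 1263 against 1626 and 1086, and GNA13 read 7190 and 9588 against 7290 and 8220 (-0.10).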

How the data were processed

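Gene expression was measured on 4 arrays, 2 of untreated and 2 of LPA-treated HEK293 cells. The authors deposited 1 linear intensity per probe set and array, and the submitters' processing notes name MAS5, with settings and version not given in the sources used here. The mean after trimming 2% at each end was 500.1 on every array, so the arrays had been scaled to a common level, and no further normalization was applied. Without raw probe data or detection calls, precision is limited by the number of arrays, and the members' log2 differences had a median SE of 0.29.

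Of 54675 probe sets 41097 carry 1 gene symbol, 1801 several and 11777 none, and those without exactly 1 were left out. Of the first, 41043 were matched by gene identifier to RefSeq, with 0 symbols changed. Values were taken as log2(intensity + 1), a scale on which folds of dim genes are understated. A gene was tested if its mean log2 intensity exceeded the 40th percentile of all genes, which kept 11865. Groups were compared with limma 3.58.1 in R 4.3.3 (lmFit, eBayes with an intensity trend), two-sided, adjusted over all genes tested by Benjamini-Hochberg at 0.05. The ratio of probe sets was fitted without the trend. The code was tested on simulated data.

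Members, lists, tests and alternatives were chosen with earlier results of these data known. Named genes were up to 8 per direction with the largest difference among tested members without overlap, members with an unadjusted limma p under 0.05, and a fixed set: ARHGEF1, ARHGEF11, ARHGEF12, ARHGEF25, ARHGEF7, ARHGEF18, ARHGAP1, ARHGAP5, ARHGAP35, ARHGAP18, ARHGAP21 and ARHGAP29. ARHGEF2, also in that set, is not analysed here. From each other list up to 2 genes of smallest p could be named, and other genes are named after their values were seen. Some of the other lists of the pathway are not reported here.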

Additional observations from a re-analysis of the deposited data

How the results depend on the processing

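Under all 15 alternatives 0 members passed the adjusted limma threshold. Over all genes, the count of 0 became 32 with the replicate number as a block, 4 with that block and quantile normalization, and 0 to 3 when 1 array was left out. The labels do not say that a number pairs arrays, and same-numbered arrays deviated together with r = 0.33 across genes, over only 2 pairs. With the block 5 members, against 8.55% of all genes, had an unadjusted limma p under 0.05 (ARHGEF12, ARHGAP5, ARHGAP35, ARHGAP39 and ARHGAP24). ARHGAP24 is among them although its replicate numbers went opposite ways (0.27 and -2.95). ARHGEF12 had the smallest adjusted p, 0.0879, or 0.275 with quantile normalization added.

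The RhoGAP median became -0.032 with median centring, -0.035 with a filter at the 60th percentile and -0.14 with the mean of all probe sets. Leaving out 1 array gave -0.030 to 0.19 for the RhoGEF median, -0.15 to -0.040 for the RhoGAP median and 0.12 to 0.26 for their gap. The gap was 0.0039 with the mean of probe sets above the filter and 0.11 with the mean of all, and the RhoGEF median was 0.0097 with the filter at the 60th percentile. In replicate numbers 1 and 2 the RhoGEF median was 0.012 and 0.10, the RhoGAP median -0.024 and -0.062, and the gap 0.036 and 0.16. At its furthest, leaving out 1 array moved each of the 3 values by more than these pairs differ. The cause of these shifts was not tested.

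Signs turned mostly with the choice of probe set. With the mean of all probe sets the log2 differences were -0.051 for ARHGEF1, -0.22 for ARHGEF12, -0.21 for ARHGAP27, 0.24 for ARHGAP19, 0.068 for ARHGEF4, -0.035 for ARHGEF7, 0.038 for ARHGAP18 and -0.27 for ARHGAP21. With only those above the filter they were -0.051 for ARHGEF1, -0.48 for ARHGEF12, 0.038 for ARHGAP18 and -0.27 for ARHGAP21. Without a change of sign, differences also moved with that choice for ARHGAP31 (0.79 with all) and ARHGAP35 (-0.077 with those above the filter). ARHGAP21 was -0.0062 under quantile normalization with or without the block. Leaving out 1 array gave 0.28 to 0.61 for ARHGEF12, -0.37 to -0.14 for ARHGAP35 and -0.35 to -0.13 for ARHGAP10. It gave ranges across 0 for ARHGEF25 (-0.58 to 0.38), ARHGEF7 (-0.085 to 0.32), ARHGEF18 (-0.30 to 0.22), ARHGAP1 (-0.27 to 0.16), ARHGAP18 (-0.17 to 0.028), ARHGAP21 (-0.14 to 0.16) and ARHGAP29 (-0.15 to 0.083). The ratio of ARHGEF12's 2 brightest probe sets kept its sign under the 8 alternatives added after the data were seen, from 1.11 to 1.99, and that of ARHGEF1 from 0.80 to 1.76, with 0 genes past the threshold in each.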
